A study of Homo sapiens with 6 samples.

Results

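Toll-like receptors are the 10 human genes *TLR1* to *TLR10*, taken by symbol from the RNA-seq count table, which lists 30017 genes. All 10 were found and all 10 were among the 14758 genes with enough counts to be tested. Libraries were made from BLaER1-CTCF-mAID cells, 1 subclone of a B cell leukemia line that expresses an inducible CEBPA and in which CTCF is tagged with a degron (mAID). Adding indole-3-acetic acid (IAA), an auxin, leads to loss of the tagged protein. The 3 conditions, each with 2 biological replicates, were cells cultured without transdifferentiation factors (0 h), cells kept for 96 h with 17β-estradiol, IL-3 and CSF-1 and without IAA (96 h control), and cells kept for 96 h with the same factors and IAA (96 h CTCF-depleted). For CTCF depletion, the medium was exchanged partway for fresh medium with the factors and IAA. The methods do not say whether the control medium was exchanged too. The degron and the inducible CEBPA are present in all groups, and these libraries include no IAA-treated cells that lack the degron. The effects of IAA, of CTCF loss and of any difference in medium exchange thus cannot be told apart.

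Toll-like receptors recognize microbial molecules and signal through cytoplasmic TIR domains, which recruit adaptor proteins and lead to activation of NF-κB and interferon regulatory factors. Most work at the cell surface, where TLR2 pairs with TLR1 or TLR6 to bind lipopeptides, TLR4 binds lipopolysaccharide and TLR5 binds flagellin, whereas TLR3, TLR7, TLR8 and TLR9 bind nucleic acids in endosomes. Macrophages use many of these receptors, and B cells are known for TLR9, TLR7, TLR1 and TLR10. The comparisons address which receptors change as B cells convert into induced macrophages (iMacs), and which of them depend on CTCF.

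Of the 10 receptors, 6 are surface receptors (*TLR1*, *TLR2*, *TLR4*, *TLR5*, *TLR6* and *TLR10*) and 4 are endosomal (*TLR3*, *TLR7*, *TLR8* and *TLR9*). Some of them sit side by side in the genome. *TLR10*, *TLR1* and *TLR6* lie in a row on chromosome 4 (hg38), with *TLR10* at chr4:38772238-38782990, *TLR1* at chr4:38790677-38856817 and *TLR6* at chr4:38822897-38856817, all on the minus strand. *TLR7* (chrX:12867072-12890361) and *TLR8* (chrX:12906620-12923169) are neighbours on the plus strand of the X chromosome, separated by 16.3 kb. The other receptors stand alone, with *TLR2* at chr4:153684070-153706260, *TLR3* at chr4:186068911-186088073, *TLR4* at chr9:117704175-117724735, *TLR5* at chr1:223109404-223143248 and *TLR9* at chr3:52221080-52225645. The *TLR1* gene span contains all of *TLR6*, and 1 of the 10 annotated *TLR1* transcripts starts where both *TLR6* transcripts start. The 2 genes share 57 exon bases, 1.26% of the *TLR1* exon length and 0.83% of that of *TLR6*. Of all 100-base windows of the main *TLR1* transcript, 4.32% are also found in that of *TLR6*, and of its 50-base windows 8.49%. The methods give 100 cycles of paired-end reads without a length per read. A small part of the reads of this pair could thus be assigned to the wrong member.

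Sequences just upstream of the transcription start are shown for the *TLR5* gene, which was higher upon CTCF depletion, for *TLR6* and *TLR9*, which were lower, and for *TLR8*, which had no counts at 0 h. RefSeq (GRCh38.p14) gave such sequences for 7 of the 10 receptors, not for *TLR1*, *TLR7* and *TLR10*. Each covers the 250 bases before the start, 5′ to 3′ on the strand of the gene. Capitals mark matches on either strand to 4 short motifs, namely AGGNGGCNG from the core of the CTCF site, TTGCNNAA for C/EBP factors, GAGGAAG for PU.1 and AAANNGAAA for interferon regulatory factors.
TLR5 upstream, chr1:223143249-223143498, minus strand: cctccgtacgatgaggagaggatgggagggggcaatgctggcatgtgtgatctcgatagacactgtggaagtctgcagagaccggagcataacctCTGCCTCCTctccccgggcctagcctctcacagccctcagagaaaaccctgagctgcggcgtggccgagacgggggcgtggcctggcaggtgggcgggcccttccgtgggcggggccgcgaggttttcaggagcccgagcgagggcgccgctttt
TLR6 upstream, chr4:38856818-38857067, minus strand: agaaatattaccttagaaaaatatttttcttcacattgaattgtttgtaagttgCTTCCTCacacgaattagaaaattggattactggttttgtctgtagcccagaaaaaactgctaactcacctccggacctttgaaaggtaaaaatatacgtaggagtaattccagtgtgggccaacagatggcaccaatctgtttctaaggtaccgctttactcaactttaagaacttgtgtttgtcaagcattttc
TLR8 upstream, chrX:12906370-12906619, plus strand: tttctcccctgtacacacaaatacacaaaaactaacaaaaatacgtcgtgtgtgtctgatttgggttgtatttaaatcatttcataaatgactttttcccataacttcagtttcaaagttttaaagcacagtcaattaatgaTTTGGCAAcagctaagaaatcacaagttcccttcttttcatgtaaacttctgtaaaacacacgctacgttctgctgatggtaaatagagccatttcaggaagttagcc
TLR9 upstream, chr3:52225646-52225895, minus strand: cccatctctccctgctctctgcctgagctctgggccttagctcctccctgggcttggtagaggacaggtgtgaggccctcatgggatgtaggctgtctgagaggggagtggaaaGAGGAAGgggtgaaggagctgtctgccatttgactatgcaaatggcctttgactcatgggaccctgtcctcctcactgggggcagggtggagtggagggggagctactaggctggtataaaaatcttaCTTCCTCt
The upstream sequence of *TLR5* holds 1 match to the CTCF core letters, that of *TLR6* holds 1 match to the PU.1 letters, that of *TLR8* holds 1 match to the C/EBP letters and that of *TLR9* holds 2 matches to the PU.1 letters. Among the sequences not printed, that of *TLR4* holds 4 matches to the PU.1 letters, that of *TLR3* holds 1 match to the C/EBP letters and that of *TLR2* holds 1 match to the interferon regulatory factor letters. Of 35116 upstream sequences of the same length, 17.65% hold the CTCF core letters, 9.05% the C/EBP letters, 11.25% the PU.1 letters and 9.2% the interferon regulatory factor letters. These matches describe the letters in the window and do not show that a factor binds there. Only exact matches were marked, so a sequence without a mark may still hold a variant of a site. The unmarked stretch agatggcac of *TLR6*, for instance, comes near the CTCF core letters. How common such near matches are was not counted.

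Total counts ranged from 9273470 to 12718780 per library. The 8 B cell markers used as a check, among them *CD79A* and *PAX5*, all fell between 0 h and 96 h control, and the 8 macrophage markers, among them *ITGAM*, *CSF1R* and *CD68*, all rose. Their summed levels went from 2350 to 2360 CPM (counts scaled to a common library size) at 0 h to between 419 and 429 CPM for the B cell markers, and from between 35 and 39 CPM to between 5110 and 5360 CPM for the macrophage markers. In CTCF-depleted cells the summed B cell markers were at 437 to 451 CPM and the summed macrophage markers at 4970 to 5020 CPM, most of it *LYZ* at 4168 and 4147 CPM. Single markers moved within these sums upon CTCF depletion, with *CD22* (1.47) and *ITGAM* (1.15) called higher and *VPREB1* (-0.89) and *MRC1* (-1.33) called lower, on the log2 scale. Their part in the receptor values was not tested. *CTCF* transcripts were at 181 and 174 CPM in control and 191 and 189 CPM in CTCF-depleted libraries, and since the degron acts on the protein they do not check the depletion. All values come from bulk RNA, in which fewer cells of a type and less RNA per cell cannot be told apart.

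Conversion raised most of the receptors. A gene was called changed when edgeR's quasi-likelihood test gave an adjusted p below 0.01 and the absolute log2 fold change exceeded 0.6. Between 0 h and 96 h control, 7 of 10 receptors were called higher, 2 were called lower (*TLR3* and *TLR10*) and *TLR9* was not called. Over all genes tested, 48.3% were called in this comparison, 25.4% higher and 22.9% lower. Upon CTCF depletion, 1 receptor was called higher (*TLR5*), 5 were called lower (*TLR1*, *TLR2*, *TLR6*, *TLR7* and *TLR9*) and 4 were not called. The background there was 12.4% of all genes tested, 5.41% higher and 7.03% lower. Among surface receptors the median log2 fold change was 2.64 upon conversion and -1.22 upon CTCF depletion. Among endosomal receptors it was 3.13 and -0.25, and over all genes tested 0.02 and -0.03. Medians of so few receptors rest on single members. The endosomal 3.13 lies between *TLR9* (0.51) and *TLR7* (5.74), and the surface -1.22 between *TLR1* (-1.59) and *TLR2* (-0.84). They also include receptors with few counts in a group, such as *TLR10* upon depletion. *TLR3* and *TLR10* passed the filter on low counts only through the 0 h libraries, and *TLR5*, *TLR7* and *TLR8* only through the 96 h libraries.

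**Figure D1:**
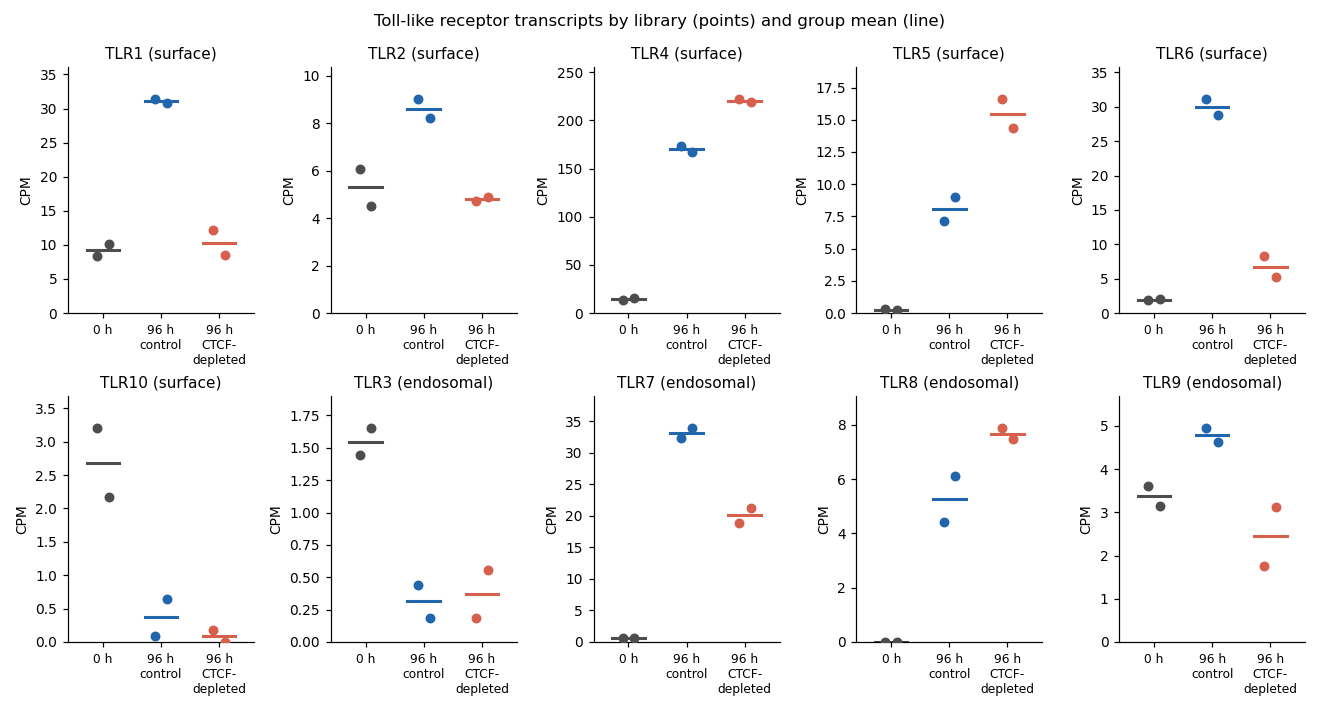
Level of each Toll-like receptor in the 6 libraries, in CPM on an axis of its own that starts at 0. Points are libraries and lines are means of 2 libraries, and the panels of *TLR1* and *TLR6* show control libraries near 30 CPM with both other groups lower, whereas those of *TLR4*, *TLR5* and *TLR8* show the highest points in CTCF-depleted libraries.

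*TLR1*, the partner of TLR2 for triacylated lipopeptides, was at 8.36 and 10.1 CPM at 0 h, 31.3 and 30.8 CPM in control and 12.1 and 8.57 CPM in CTCF-depleted libraries. The 2 control libraries stood apart from all others, while the 0 h and CTCF-depleted libraries overlapped. *TLR1* rose upon conversion with a log2 fold change of 1.73 (SE 0.135, adjusted p = 1.86e-17 by edgeR's quasi-likelihood test). Upon CTCF depletion *TLR1* was 3-fold lower, a log2 fold change of -1.59 (SE 0.134, adjusted p = 4.91e-15 by edgeR). Between CTCF-depleted and 0 h cells the log2 fold change of *TLR1* was 0.15 (95% interval -0.17 to 0.47, adjusted p = 0.406 by edgeR), and without CTCF-depleted replicate 1 it was -0.12.

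*TLR6*, the partner of TLR2 for diacylated lipopeptides, had the largest fall among the 5 receptors called lower upon CTCF depletion. It was at 1.86 and 2.03 CPM at 0 h, 31.1 and 28.8 CPM in control and 8.24 and 5.25 CPM in CTCF-depleted libraries. The 3 groups did not overlap, with CTCF-depleted libraries between the others. *TLR6* was 15.3-fold higher in control than at 0 h (log2 fold change 3.93, SE 0.191, adjusted p = 2.54e-26 by edgeR). Upon CTCF depletion *TLR6* was 4.44-fold lower than in control (log2 fold change -2.15, SE 0.153, adjusted p = 6.97e-18 by edgeR), yet it was still called higher than at 0 h (log2 fold change 1.78, SE 0.249, adjusted p = 5.19e-09 by edgeR).

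*TLR2*, the common partner of TLR1 and TLR6, moved less. Its levels were 6.09 and 4.50 CPM at 0 h, 9.0 and 8.24 CPM in control and 4.72 and 4.88 CPM in CTCF-depleted libraries. Control libraries were the highest, and the CTCF-depleted libraries lay within the range at 0 h. *TLR2* rose upon conversion by a log2 fold change of 0.73 (SE 0.2, adjusted p = 9.87e-04 by edgeR) and fell upon CTCF depletion by 0.84 on the log2 scale (SE 0.205, adjusted p = 6.79e-04 by edgeR). Both *TLR2* calls depended on the tool and on single libraries. With DESeq2 the adjusted p was 0.0249 upon conversion and 0.0233 upon CTCF depletion. The rise was not called without 0 h replicate 2, when its log2 fold change was 0.46 (edgeR adjusted p = 0.0818), or without control replicate 1 (0.63, edgeR adjusted p = 0.0292). The fall was not called without control replicate 1 (-0.75, edgeR adjusted p = 0.0299) or without CTCF-depleted replicate 1 (-0.78, edgeR adjusted p = 0.0126).

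The balance among these 3 partners differed between conditions. Per kilobase of exon, the level of *TLR6* was 0.147 and 0.132 of that of *TLR1* in the 0 h libraries, 0.657 and 0.618 of it in control and 0.45 and 0.406 of it in CTCF-depleted libraries. The level of *TLR6* per kilobase was 0.257 and 0.379 of that of *TLR2* at 0 h, 2.91 and 2.95 times that of *TLR2* in control and 1.47 and 0.907 times it in CTCF-depleted libraries. *TLR6* was thus above *TLR2* in both control libraries, below it in both 0 h libraries and on both sides of it in CTCF-depleted libraries. *TLR1* was above *TLR2* in each of the 6 libraries, from 1.75 times in a 0 h library to 4.76 times in a control library.

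*TLR10*, a receptor best known from B cells and a relative of TLR1 and TLR6, had 31 and 29 counts at 0 h, 1 and 7 counts in control, with 2 and 0 counts upon CTCF depletion. It was therefore the member of the chromosome 4 cluster with its highest level before conversion. In CPM, *TLR10* was at 3.20 and 2.17 at 0 h and at 0.0883 and 0.648 in control, a log2 fold change of -2.82 (SE 0.537, adjusted p = 5.31e-06 by edgeR). Leaving out 1 library moved this value from -2.04 (without control replicate 1) to -4.73 (without control replicate 2), and it stayed called. The loss in CTCF-depleted cells amounted to 28.2-fold against 0 h, with a 95% counting interval of 7.48 to 238, with both counts from CTCF-depleted replicate 1. Without CTCF-depleted replicate 2 the fitted log2 value was -3.72, and without replicate 1 the only library left had 0 counts. Upon CTCF depletion against control, with 2 counts against 8, the fitted interval of the *TLR10* log2 fold change ran from -4.07 to 0.37 (adjusted p = 0.193 by edgeR), and no difference was detectable at this depth.

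*TLR4*, the lipopolysaccharide receptor, carried the highest level of the family in control and in CTCF-depleted cells. Its levels were 13.7 and 15.4 CPM at 0 h, 174 and 167 CPM in control and 222 and 219 CPM in CTCF-depleted libraries. The 3 groups did not overlap, and the CTCF-depleted libraries were the highest. *TLR4* rose 11.6-fold upon conversion (log2 fold change 3.54, SE 0.076, adjusted p = 1.01e-43 by edgeR). Upon CTCF depletion it was 1.29-fold higher than in control, a log2 fold change of 0.37 (SE 0.054, adjusted p = 8.88e-08 by edgeR), which passed the p threshold but not the fold threshold. With no fold threshold, *TLR4* counted as higher. Another gene model without a symbol overlaps *TLR4*, and how reads in the overlap were assigned is not given in the sources used here.

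*TLR5*, the flagellin receptor, was the only receptor called higher upon CTCF depletion. It had 3 and 3 counts at 0 h, which is at the limit that this depth can show, 81 and 97 counts in control, with 179 and 156 counts upon CTCF depletion. These correspond to 0.309 and 0.225 CPM, 7.15 and 8.98 CPM, and 16.6 and 14.4 CPM, with no overlap between the groups. From 0 h to control the count ratio of *TLR5* was 30.9, with a 95% counting interval of 13.9 to 85.3 (adjusted p = 7.65e-18 by edgeR). Upon CTCF depletion *TLR5* was 1.92-fold higher than in control (log2 fold change 0.94, SE 0.166, adjusted p = 5.08e-06 by edgeR). It was called higher in each fit that left out 1 of the 4 libraries compared, and its log2 fold change ranged from 0.82 to 1.14 over the alternatives that tested it. It was not called with a log2 threshold of 1 or with glmTreat, which tests against the fold threshold itself (adjusted p = 0.0863).

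**Figure D2:**
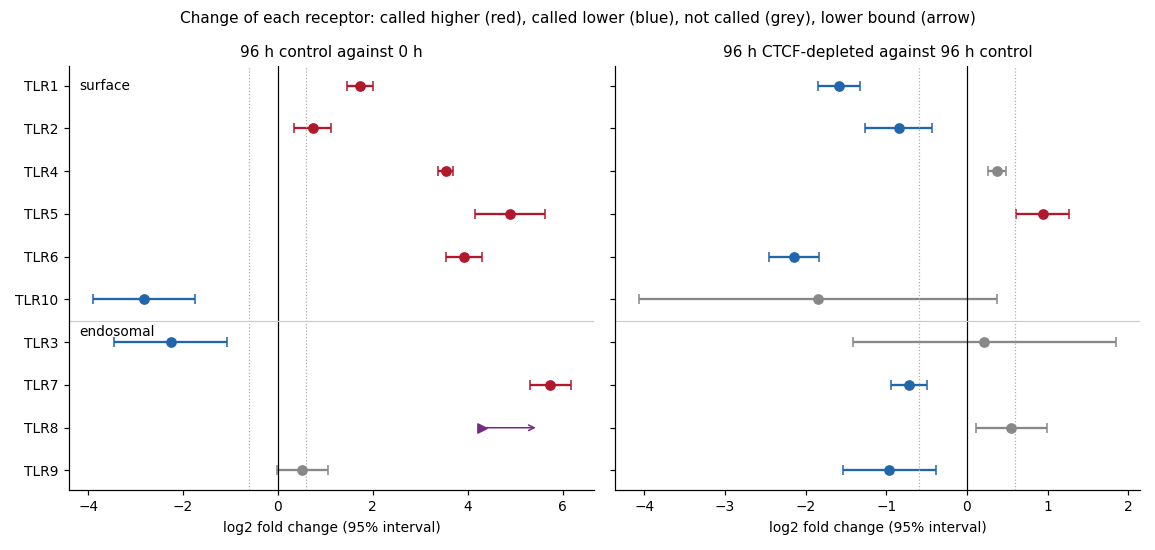
Log2 fold changes of the 10 receptors with 95% intervals from edgeR, for 96 h control against 0 h and for 96 h CTCF-depleted against 96 h control, with surface receptors above the grey line and endosomal receptors below it. Red marks receptors called higher, blue called lower and grey not called, dotted lines mark the fold threshold of 0.6, and the arrow marks the lower bound of *TLR8*, so that *TLR1* and *TLR6* are seen furthest to the left among the called receptors in the right panel.

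Among endosomal receptors with counts in the 0 h libraries, *TLR7*, which binds single-stranded RNA, had the largest rise. Its levels were 0.619 and 0.6 CPM at 0 h, 32.3 and 33.9 CPM in control and 18.9 and 21.3 CPM in CTCF-depleted libraries. The 3 groups did not overlap, and CTCF-depleted libraries lay between the others. *TLR7* rose by a log2 fold change of 5.74 upon conversion (SE 0.213, adjusted p = 6.44e-32 by edgeR). It fell by 0.72 on the log2 scale upon CTCF depletion, which is 1.65-fold (SE 0.112, adjusted p = 3.56e-07 by edgeR), and was still 32.5-fold higher than at 0 h. Without CTCF-depleted replicate 1 the *TLR7* log2 fold change upon depletion was -0.60, which did not pass the fold threshold (edgeR adjusted p = 4.12e-04).

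*TLR8*, also a receptor for single-stranded RNA, had 0 counts in both 0 h libraries, 50 and 66 counts in control, with 85 and 81 counts upon CTCF depletion. In CPM these are 4.41 and 6.11 in control and 7.87 and 7.46 in CTCF-depleted libraries. A count of 0 allows up to 3 counts per library, so *TLR8* was at least 19.7-fold higher in control and at least 28.7-fold higher in CTCF-depleted cells than at 0 h. Both CTCF-depleted libraries were above both control libraries, and the log2 fold change of *TLR8* was 0.55 (95% interval 0.11 to 0.99, adjusted p = 0.0426 by edgeR), which did not pass the thresholds. With DESeq2 the adjusted p was 0.247, and leaving out 1 library gave values from 0.36 without control replicate 1 to 0.83 without control replicate 2. The levels of its neighbour *TLR7* were below control in both CTCF-depleted libraries. The level of *TLR8* per kilobase was 0.163 and 0.215 of that of *TLR7* in control and 0.498 and 0.419 of it in CTCF-depleted libraries, whose ratios were both above those in control. The antisense transcript *TLR8-AS1*, which shares 0 exon bases with *TLR8*, had 0 and 0 counts at 0 h, 6 and 13 counts in control, with 10 and 15 counts upon CTCF depletion. Whether the counting used strand is not given in the sources used here.

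*TLR9*, the receptor for unmethylated CpG DNA, was at 3.61 and 3.15 CPM at 0 h, 4.94 and 4.63 CPM in control and 1.76 and 3.13 CPM in CTCF-depleted libraries. The order of the groups, with control above 0 h and CTCF-depleted cells below it, held without overlap, but the 2 CTCF-depleted libraries differed from each other more than those of any other group. The rise of 0.51 on the log2 scale did not pass the test (95% interval -0.02 to 1.05, adjusted p = 0.0758 by edgeR). Upon CTCF depletion *TLR9* was called lower with a log2 fold change of -0.97 (SE 0.286, adjusted p = 0.00508 by edgeR). This call was lost with DESeq2 (adjusted p = 0.0652) and without control replicate 1 (-0.88), control replicate 2 (-0.98) or CTCF-depleted replicate 1 (-0.57), for which edgeR gave adjusted p-values of 0.0702, 0.0402 and 0.208. *TLR9* overlaps another gene model without a symbol, and reads could be shared between them.

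*TLR3*, the receptor for double-stranded RNA, was the endosomal receptor with its highest level before conversion. It had 14 and 22 counts at 0 h, 5 and 2 counts in control, with 2 and 6 counts upon CTCF depletion. *TLR3* fell upon conversion with a log2 fold change of -2.26 (SE 0.59, adjusted p = 5.58e-04 by edgeR), a call that was lost with DESeq2 (adjusted p = 0.0195) and without 0 h replicate 2 (edgeR adjusted p = 0.0154) or control replicate 2 (-1.79, edgeR adjusted p = 0.0316). In CTCF-depleted cells against 0 h the call of *TLR3* was lost with DESeq2 (adjusted p = 0.0317) and without 0 h replicate 2 (edgeR adjusted p = 0.0266) or CTCF-depleted replicate 1 (-1.48, edgeR adjusted p = 0.0603). The control and CTCF-depleted libraries overlapped, with a log2 fold change of *TLR3* between them of 0.22 (95% interval -1.41 to 1.85, adjusted p = 0.867 by edgeR), so that a difference was not detectable at this depth.

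The groups of libraries did not overlap for 10 of 10 receptors between 0 h and control and for 8 of 10 between control and CTCF-depleted cells, against 86.7% and 67.9% of all genes tested. Between 0 h and CTCF-depleted cells they did not overlap for 8 of 10 receptors, against 87.8% of all genes tested. In CTCF-depleted cells against 0 h, *TLR4*, *TLR5*, *TLR6*, *TLR7* and *TLR8* were called higher, *TLR3* and *TLR10* were called lower, and *TLR1*, *TLR2* and *TLR9* were not called, with 52.5% of all genes tested called in this comparison. The 0 h libraries are shared with the comparison of control against 0 h.

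The make-up of the receptor signal differed between conditions. Summed over all 10 receptors in CPM, to which the long *TLR4* transcript adds most at 96 h, the level was 39.2 and 39.8 CPM at 0 h, 295 and 289 CPM in control and 292 and 284 CPM in CTCF-depleted libraries. The sum was higher at 96 h in every library, and the control and CTCF-depleted libraries overlapped. Taken per kilobase of exon, the sum was 6.39 and 6.28 CPM per kilobase at 0 h, 35.8 and 35.6 in control and 29.6 and 28.7 in CTCF-depleted libraries, so that on this scale both CTCF-depleted libraries were below both control libraries. Of this sum per kilobase, *TLR1* held 32.2% on average at 0 h, 19.2% in control and 7.82% in CTCF-depleted cells. The mean share of *TLR4* went the other way, from 17.3% at 0 h to 35.9% in control and 57.0% in CTCF-depleted cells. The mean share of *TLR6* was 4.47%, 12.2% and 3.37%, and that of *TLR7* was 1.85%, 17.8% and 13.3%. *TLR9*, *TLR10* and *TLR2* held mean shares of 15.9%, 10.0% and 14.5% at 0 h and less than these in all 96 h libraries. A lower share need not be a lower level, as *TLR9* was at 3.61 and 3.15 CPM at 0 h and 4.94 and 4.63 CPM in control.

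**Figure D3:**
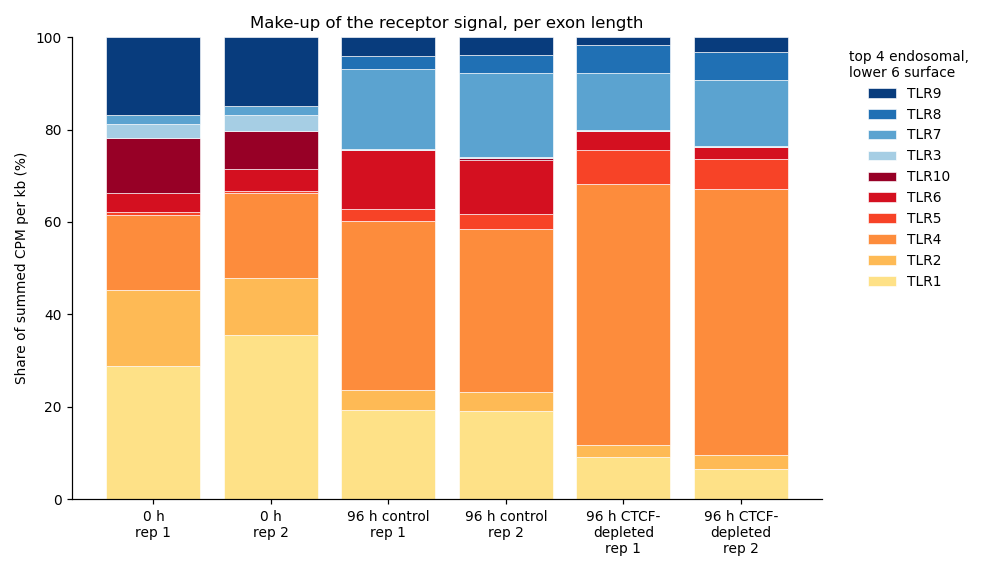
Share of each receptor in the summed receptor signal of each library, in percent of CPM per kilobase of exon, with the 4 endosomal receptors in blue on top and the 6 surface receptors in yellow to red below. The *TLR4* segment is largest in both CTCF-depleted libraries, at 56.5% and 57.5%, and the *TLR1* segment is largest in both 0 h libraries, at 28.8% and 35.5%.

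Surface and endosomal receptors were compared as shares of this sum. Endosomal receptors made up 21.0% ± 1.03 (SD, n = 2) at 0 h, 25.3% ± 1.21 in control and 22.0% ± 2.49 in CTCF-depleted cells. All libraries lay between 20.3% and 26.2%, with both control libraries above the others. The difference of 4.3 percentage points between control and 0 h and that of -3.3 between CTCF-depleted and control gave an exact two-sided permutation p = 0.333 each, the smallest that 2 against 2 libraries allow. Without division by exon length the endosomal share was lower, at 14%, 14.9% and 10.6%, with both CTCF-depleted libraries, at 9.82% and 11.4%, below the others. The endosomal share was made of different receptors before and after conversion, with *TLR9* as the highest of them at 0 h and *TLR7* at 96 h.

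The order of levels per kilobase was different in each condition. At 0 h, *TLR1* was highest with 2.04 CPM per kilobase, followed by *TLR4* (1.10), *TLR9* (1.01) and *TLR2* (0.917), and then by *TLR10* (0.637), *TLR6* (0.283), *TLR3* (0.206), *TLR7* (0.117), *TLR5* (0.0346) and *TLR8* (0). The levels of *TLR4* and *TLR9*, and those of *TLR9* and *TLR2*, overlapped between the 0 h libraries. In control, *TLR4* led with 12.8 CPM per kilobase, ahead of *TLR1* (6.85), *TLR7* (6.36) and *TLR6* (4.37). *TLR2* (1.49), *TLR9* (1.43), *TLR8* (1.21) and *TLR5* (1.04) followed, each overlapping the next, and *TLR10* and *TLR3* were at most 0.154 CPM per kilobase in both control libraries. In CTCF-depleted cells *TLR4* led with 16.6 CPM per kilobase, *TLR7* was next with 3.86, and *TLR1* (2.28) and *TLR5* (2.00) overlapped. *TLR8* (1.76) then stood above *TLR6* (0.985), which overlapped *TLR2* (0.832), as did *TLR9* (0.73), and *TLR3* and *TLR10* were again lowest. *TLR5* and *TLR8* were below *TLR6* in both control libraries and above it in both CTCF-depleted libraries. Levels per kilobase use all annotated exons, and the order of receptors depends on this choice. *TLR5* has 7733 bases in all exons and 4259 in protein-coding transcripts, and *TLR1* has 4537 and 3500. The order with the shorter lengths is not given here.

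Genes next to the receptors were found on both sides of control upon CTCF depletion. Around the chromosome 4 cluster, 4 other tested genes lie within 500 kb, of which 2 were called upon CTCF depletion, against 12.4% of all genes tested. *KLF3*, a transcriptional repressor gene 70.7 kb from *TLR10*, was at 0.103 and 0.0750 CPM at 0 h, 50.7 and 57.3 CPM in control and 27.2 and 25.8 CPM in CTCF-depleted libraries, a log2 fold change upon depletion of -1.03 (adjusted p = 4.52e-14 by edgeR). *TMEM156*, on the *TLR6* side, was called higher with a log2 fold change of 1.65 (adjusted p = 0.00116 by edgeR), and *KLHL5* and *WDR19* further along were not called, at 0.37 and -0.48. *FAM114A1*, which lies between *TLR6* and *TMEM156*, was not tested because of low counts.

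Around *TLR7* and *TLR8*, 1 of 3 other tested genes within 500 kb was called upon CTCF depletion, against 12.4% of all genes tested. *TMSB4X*, which encodes the actin-binding peptide thymosin β4 and lies 51.9 kb beyond *TLR8*, was at 1080 and 1026 CPM in control and 673 and 618 CPM in CTCF-depleted libraries, a log2 fold change of -0.71 (adjusted p = 1.26e-18 by edgeR). *PRPS2*, on the *TLR7* side, had a log2 fold change of 0.46 and *TLR8-AS1* of 0.42, and neither was called.

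**Figure D4:**
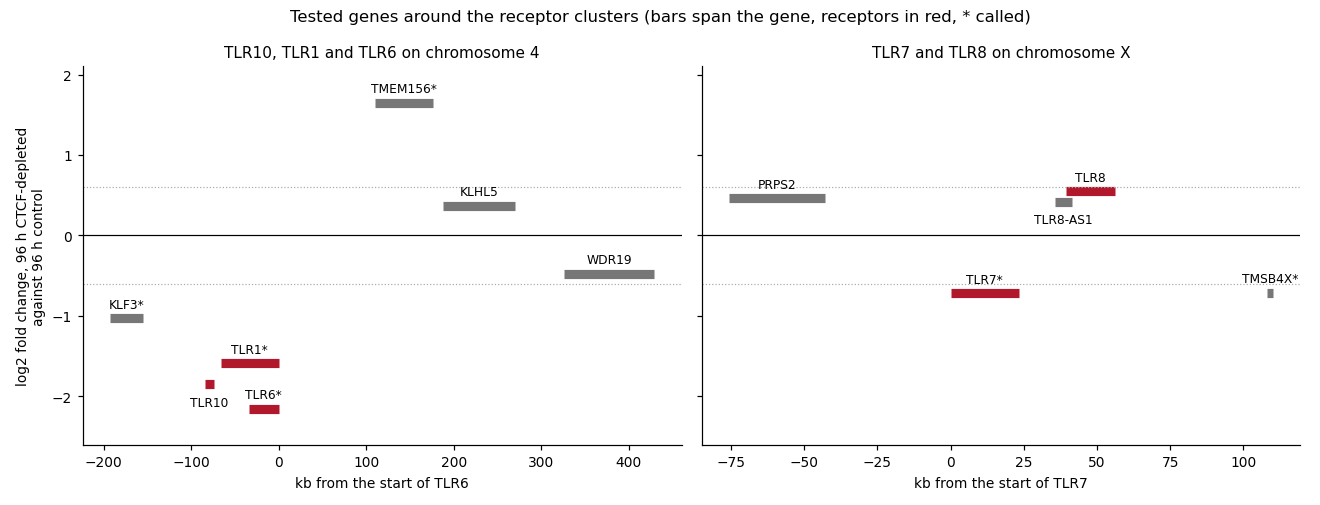
Log2 fold change upon CTCF depletion (vertical axis) of tested genes around *TLR10*, *TLR1* and *TLR6* and around *TLR7* and *TLR8*, against distance in kb from the start of *TLR6* or *TLR7*. Bars span each gene, receptors are red, stars mark called genes and dotted lines the fold threshold of 0.6, and the plot shows *TLR1*, *TLR6* and *KLF3* below the line while *TMEM156* is above it.

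Of the genes next to the other receptors, *RNF175*, 3.9 kb beyond *TLR2*, had the largest fall upon CTCF depletion. It had 28 and 49 counts at 0 h, 25 and 29 counts in control, with 1 and 1 counts upon CTCF depletion, which is 26.4-fold lower than control with a 95% counting interval of 6.97 to 224 (adjusted p = 7.73e-08 by edgeR). *RNF175*, a RING finger gene, was not called upon conversion (adjusted p = 0.194 by edgeR), unlike *TLR2* next to it. On the other side of *TLR2*, *TMEM131L*, listed under its older symbol *KIAA0922*, was at 158 and 175 CPM in control and 171 and 169 CPM in CTCF-depleted libraries and was not called. *SORBS2*, the nearest gene upstream of *TLR3*, was called higher upon CTCF depletion (log2 fold change 1.02, adjusted p = 8.37e-06 by edgeR). The tested genes next to *TLR4* (*ASTN2*), *TLR5* (*DISP1* and *SUSD4*) and *TLR9* (*ALAS1* and *TWF2*) were not called in this comparison, while *FAM149A* next to *TLR3* and *BRINP1* next to *TLR4* were not tested.

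The remaining genes of the receptor pathway were followed in 5 lists of 56 genes, of which 51 were tested. Upon conversion 28 of them were called higher and 5 lower, with a median log2 fold change of 0.71. Upon CTCF depletion 4 were called higher and 5 lower, with a median of 0.05, and 42 were not called. Over all genes tested, 25.4% were called higher and 22.9% lower upon conversion, and 5.41% and 7.03% upon depletion.

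Receptor partners and chaperones help receptors to bind ligand or to reach their compartment. Of 13 tested, 6 were called higher and 1 lower upon conversion, and 1 higher and 1 lower upon CTCF depletion, with medians of 0.47 and 0.11. *CD36*, a scavenger receptor that assists the TLR2 and TLR6 pair, had 0 counts at 0 h, was at 45.5 and 49.0 CPM in control and fell to 18.1 and 14.5 CPM in CTCF-depleted libraries (log2 fold change -1.54, SE 0.11, adjusted p = 1.34e-17 by edgeR). *CD180*, a receptor relative that works with MD-1, went up, from 9.97 and 12.4 CPM in control to 19.9 and 23.1 CPM (log2 fold change 0.95, SE 0.152, adjusted p = 7.96e-07 by edgeR). *LY86*, which encodes MD-1, was at 29.5 and 28.5 CPM in control and 36.7 and 38.1 CPM in CTCF-depleted libraries, a log2 fold change of 0.37 that was not called, after a rise of 3.95 upon conversion.

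The partners of *TLR4* were followed alongside it. *CD14*, the lipopolysaccharide co-receptor, was at 0 and 0.300 CPM at 0 h, 10.2 and 12.9 CPM in control and 14.2 and 17.4 CPM in CTCF-depleted libraries. *LY96*, which encodes the lipopolysaccharide-binding MD-2, was at 2.06 and 1.43 CPM at 0 h, 8.21 and 7.32 CPM in control and 7.04 and 10.4 CPM in CTCF-depleted libraries. Both were called higher upon conversion and neither was called upon CTCF depletion, with 95% intervals of the log2 fold change of 0.13 to 0.78 for *CD14* and -0.22 to 0.56 for *LY96*. *UNC93B1*, which carries the endosomal receptors to their compartment, rose upon conversion with a log2 fold change of 0.74 and was not called upon CTCF depletion (95% interval -0.03 to 0.25). *SLC15A4*, an endolysosomal transporter that works with TLR7 and TLR9, fell upon conversion with a log2 fold change of -1.41 (SE 0.09, adjusted p = 6.28e-21 by edgeR).

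Adaptors connect the TIR domain to kinases, and 5 of 6 were tested. Upon conversion 1 was called higher and 2 lower (median 0.21), and 0 were called upon CTCF depletion by edgeR or by DESeq2 (median 0.19). At an unadjusted p below 0.05 were *MYD88*, *SARM1* and *TICAM1*, 3 of the 5. Of these, *MYD88* and *SARM1* (log2 fold change 0.35, adjusted p = 4.66e-04 by edgeR) missed only the fold threshold. *MYD88*, the adaptor of nearly all Toll-like receptors, was at 93.5 and 84.2 CPM at 0 h, 158 and 159 CPM in control and 213 and 202 CPM in CTCF-depleted libraries. Its groups did not overlap, with a log2 fold change of 0.84 upon conversion and of 0.39 upon depletion (SE 0.054, adjusted p = 2.73e-08 by edgeR), the second under the fold threshold. *PIK3AP1* (BCAP), an adaptor linked to PI3K signaling in B cells, fell by 0.81 on the log2 scale upon conversion and *SARM1*, a negative regulator, fell by 0.66.

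Kinases and ubiquitin ligases carry the signal on, and all 20 were tested. Upon conversion 11 were called higher and 1 lower (median 0.69), and upon CTCF depletion 1 was called lower and 0 higher by edgeR and by DESeq2 (median -0.04). At an unadjusted p below 0.05, 8 were lower and 4 higher. Among them, *PELI2* (-0.58), *TAB2* (-0.23) and *IRAK4* (0.35) passed the adjusted p threshold and missed only the fold threshold. *IRAK2*, a kinase-like protein of the receptor complex, was at 1.14 and 1.13 CPM at 0 h, 28.1 and 29.8 CPM in control and 14.6 and 13.8 CPM in CTCF-depleted libraries. It rose by a log2 fold change of 4.67 upon conversion and fell by 1.02 on the log2 scale upon depletion (SE 0.125, adjusted p = 7.95e-10 by edgeR). *PELI1*, a ubiquitin ligase, and *IKBKE*, a kinase upstream of interferon regulatory factors, rose upon conversion with log2 fold changes of 2.32 and 2.27 and were not called upon depletion, at -0.15 and -0.07.

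Dampeners limit receptor signaling, and 6 of 8 were tested. Upon conversion 4 were called higher and 1 lower (median 1.08), and upon CTCF depletion 3 were called higher and 0 lower by edgeR (median 0.51), with 1 lower at an unadjusted p below 0.05 and 0 by DESeq2. *TNFAIP3*, which encodes the deubiquitinase A20, was at 37.0 and 35.6 CPM at 0 h, 9.36 and 10.7 CPM in control and 30.4 and 22.9 CPM in CTCF-depleted libraries. It fell upon conversion and was 1.41 higher on the log2 scale upon depletion (SE 0.128, adjusted p = 8.41e-14 by edgeR). *RNF216*, a ubiquitin ligase that acts on several receptors, was at 82.1 and 88.6 CPM in control and 133 and 132 CPM in CTCF-depleted libraries (log2 fold change 0.64, SE 0.064, adjusted p = 1.71e-12 by edgeR). *SOCS1*, a suppressor of cytokine signaling, was at 4.94 and 5.09 CPM in control and 7.96 and 8.11 CPM in CTCF-depleted libraries (log2 fold change 0.68, SE 0.208, adjusted p = 0.00696 by edgeR). The *SOCS1* call was lost with DESeq2 (adjusted p = 0.0825) and without any 1 of the 4 libraries compared, for which edgeR gave adjusted p-values of 0.0225 to 0.0496. *CYLD* and *TOLLIP* rose upon conversion, with log2 fold changes of 2.34 and 1.89, and were not called upon depletion.

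Endosomal proteases cut the ectodomains of the nucleic acid receptors, and interferon regulatory factors act below them. Of 7 tested in this list, 6 were called higher upon conversion (median 2.31), and 3 were called lower and 0 higher upon CTCF depletion by edgeR and by DESeq2 (median -0.22), with 2 higher at an unadjusted p below 0.05. Cathepsin B (*CTSB*) was at 1234 and 1260 CPM in control and 797 and 782 CPM in CTCF-depleted libraries (log2 fold change -0.66, SE 0.046, adjusted p = 3.15e-18 by edgeR). Legumain (*LGMN*) was at 44.4 and 46.0 CPM in control and 22.3 and 25.9 CPM in CTCF-depleted libraries (log2 fold change -0.91, SE 0.099, adjusted p = 3.45e-11 by edgeR). Cathepsin S (*CTSS*) was not called, at 0.32, as it passed the p threshold (adjusted p = 2.36e-04 by edgeR) but not the fold threshold. *IRF8* was called lower, with a log2 fold change of -1.06.

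**Figure D5:**
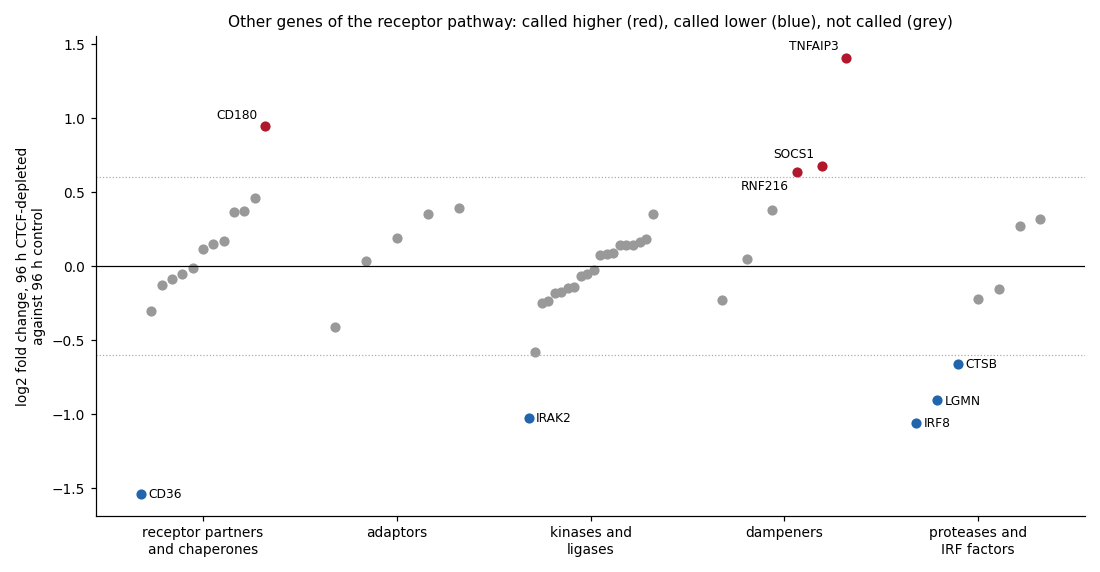
Log2 fold change upon CTCF depletion of the 51 tested pathway genes in 5 lists, ordered by value within each list, with points called higher in red, called lower in blue and not called in grey, and dotted lines at the fold threshold of 0.6. The called dampeners *TNFAIP3*, *RNF216* and *SOCS1* are red, and *CD36*, *IRAK2*, *CTSB*, *LGMN* and *IRF8* are blue.

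For receptors called upon CTCF depletion, the tested genes with the nearest profile over the 6 libraries were listed, by Euclidean distance between log2 CPM values centred on each gene's mean, among the 7706 genes whose values span at least 1 on the log2 scale. Nearest to *TLR1* were *STAG3* (distance 0.38), *HIVEP1* (0.41) and *LOC440934* (0.44). For *TLR6* they included *PHOSPHO1* (0.67) and *MARCH1* (0.84). For *TLR2* they were *RP9P* (0.22), *RGS17* (0.22) and *TMOD4* (0.25). The profile of *TLR5* was nearest to *CCND2* (0.27), and *GPR18* (0.5) was also among the nearest. The profile of *TLR7* was nearest to *SLC11A1* (0.24), *STX11* (0.31) and *C1QC* (0.34), and that of *TLR9* to *ZNF2* (0.36), *SNORD62B* (0.36) and *GNRH2* (0.42). These lists are descriptions over libraries of 3 conditions, which all genes share.

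Markers of other cells that carry these receptors were counted in the same libraries. Of 4 plasmacytoid dendritic cell markers, *CLEC4C*, *LILRA4* and *GZMB* had at most 11 counts in every library. Only *IL3RA*, which encodes the receptor of the IL-3 in the medium, was tested, with mean levels of 2.01 CPM at 0 h, 59.3 CPM in control, and of 84.3 CPM in CTCF-depleted cells. Of 4 neutrophil markers, *FCGR3B* had 0 counts in all libraries, while *CSF3R*, *MPO* and *ELANE* were called higher upon conversion, and *MPO* was called lower upon CTCF depletion. The 4 markers summed to between 0.722 and 0.825 CPM at 0 h, 79.8 and 85.8 CPM in control, and between 58.4 and 64.4 CPM in CTCF-depleted libraries, mostly from *CSF3R*. Of 3 T cell markers, *CD3D* had 0 counts in all libraries and *CD3E* at most 1, while *CD2* had 0 and 0 counts at 0 h, 40 and 38 in control, then 54 and 55 upon CTCF depletion, and was called higher upon conversion. Their part in the receptor values was not tested.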

How the data were processed

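RNA-seq was measured in 6 libraries, 2 biological replicates in each of 3 conditions. The authors deposited raw count values without normalization: reads were aligned to hg38 with STAR 2.6.1d, and featureCounts 2.0.6 counted them per gene. The methods describe counting over protein-coding exons, but the deposited table also lists noncoding genes such as *TLR8-AS1*. The annotation release and strand setting are not given in the sources used here. The reads themselves were not used. Library totals ranged from 9273470 to 12718780.

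Tests used edgeR 4.0.16 in R 4.3.3: filterByExpr (14758 genes kept), TMM scaling and a quasi-likelihood fit of all 6 libraries with condition as the only term. Benjamini-Hochberg adjustment ran over all genes tested. A call needed an adjusted p below 0.01 and an absolute log2 change above 0.6. CPM values are TMM-scaled counts of the tested genes. Standard errors were derived from the F statistic. Counting intervals are exact binomial intervals at the 95% level and, as reads carry no molecular identifiers, cover counting error only. Exon lengths, positions and neighbours come from GENCODE v44 on hg38, and sequences from RefSeq. Python 3.11.15 with pandas 2.3.3, scipy 1.17.1 and matplotlib 3.10.9 served for summaries and plots.

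The fit was tested on counts simulated for the 14758 genes kept, for CTCF-depleted against control. Of these genes, 14349 passed the filter on the simulated counts and were tested. edgeR recovered 85 of 100 genes changed by 1 on the log2 scale and 96 of 100 changed by 2, with 3 false calls. DESeq2 1.42.0 recovered 73 and 89, with 0 false calls. Changed genes were drawn only from those with a mean above 1 CPM, and the simulated spread was the one edgeR had estimated. These rates therefore do not cover genes at lower levels, such as *TLR3*.

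Replicates of a condition differed beyond sampling noise (chi-square per degree of freedom 2.69, 1.9 and 1.71). Replicate numbers were not taken as pairs, since differences between replicates did not correlate across conditions (-0.0194, 0.0109 and -0.0294).

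The receptors, lists and markers were chosen with earlier results of these data known. From each pathway list, genes called upon CTCF depletion and the 3 with the smallest adjusted p among those called upon conversion are named, besides the nearest protein-coding gene on each side of each receptor. *CD14*, *LY96*, *UNC93B1*, *TICAM1*, *PELI2*, *TAB2*, *IRAK4*, *KLHL5*, *WDR19* and *TMEM156* were named after their values were seen, to complete a description. Some genes that these rules cover are not reported here. The alternatives were DESeq2, RLE scaling, other filters on low counts, only the libraries compared, a replicate block, other thresholds, glmTreat, and a fit without each library in turn.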

Additional observations from a re-analysis of the deposited data

How the results depend on the processing

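Over the single-receptor alternatives, 339 values stayed on the same side of the thresholds with the same direction, 27 lost a call, 2 gained one and 5 changed sign. The sign changes were all in receptors that were not called. Leaving out 1 library at a time, *TLR3* upon CTCF depletion ranged from -0.71 to 0.99 (-0.22 without control replicate 2) and *TLR10* from -5.04 to 0.09, and against 0 h *TLR1* in CTCF-depleted cells ranged from -0.12 to 0.41 and *TLR2* from -0.35 to 0.12. The calls of *TLR1* and *TLR6* upon CTCF depletion held under each alternative run. With at least 10 counts in every library, 5 receptors left the test and conversion had 4 calls, 4 higher and 0 lower, depletion had 0 higher, and CTCF-depleted against 0 h had 2, of which 2 higher and 0 lower. With DESeq2, 1 receptor was lower upon conversion, 3 upon depletion and 1 in CTCF-depleted cells against 0 h. With an adjusted p below 0.05 and no fold threshold, 3 receptors were higher upon depletion, and pathway genes numbered 8 lower upon conversion and 27 called upon depletion, 15 higher and 12 lower. With a log2 threshold of 1, depletion called 2 receptors, 0 higher and 2 lower, and 4 pathway genes, 1 higher and 3 lower, and 3 pathway genes were lower upon conversion. With glmTreat, depletion called 2 receptors, 0 higher and 2 lower, and 5 pathway genes, 1 of them higher. The shares of all genes called under these other settings are not given here, so these counts have no background beside them. Leaving out 1 library at a time gave 1 to 2 receptors lower upon conversion, 3 to 6 called and 2 to 5 lower upon depletion, and 1 to 2 lower in CTCF-depleted cells against 0 h. The endosomal share without division by length was 14% at 0 h, 14.9% in control libraries and 10.6% upon CTCF depletion, and with exons of protein-coding transcripts alone it was 19% at 0 h and 23.7% in control. The replicate block changed no call of a receptor and gave 9, 6 and 7 receptors called in the 3 comparisons, with log2 fold changes upon depletion of -1.59 for *TLR1*, -2.15 for *TLR6* and 0.94 for *TLR5*. The causes of these differences were not tested, beyond the filter and thresholds that removed genes by construction. Receptors with under 10 counts in a group (*TLR3*, *TLR5*, *TLR8* and *TLR10*, and *TLR7* at 0 h) are limited by depth.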
